A study of Homo sapiens with 6 samples.

Results

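The genes described here encode the subunits, activators, inhibitor and assembly factors of the proteasome. They were chosen by name, as every symbol of the families PSMA to PSMG followed by a number, and this rule uses no measured value. The authors' deposited table of counts held 48 such genes among 61695 loci, and 46 of them were among the 30206 loci with an adjusted p. The cells were EndoC-βH1, an established and immortalised human pancreatic beta cell line, and all 6 libraries came from this single line. RNA with a poly(A) tail was sequenced from 3 control libraries, without cytokines, and from 3 cytokine libraries, with a cocktail for 24 h. The cocktail held, in ng/ml, IL-17 at 100, interferon gamma (IFN-γ) at 50, tumour necrosis factor alpha (TNF-α) at 10 and interleukin 1 beta (IL-1β) at 5. The sample labels place the controls before the exposure and the protocol describes cells kept without cytokines, so with the first reading cytokines and time in culture cannot be told apart.

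The proteasome is the protease that degrades proteins tagged with ubiquitin. Its 20S core is a barrel of stacked rings of alpha and beta subunits, 19S caps recognise, unfold and feed in the substrate, and dedicated chaperones put the parts together. The proteolytic sites lie on the beta subunits PSMB5, PSMB6 and PSMB7. In leukocytes, and in other cells exposed to interferon gamma, newly built cores carry PSMB8, PSMB9 and PSMB10 in their place, which makes the immunoproteasome and changes which peptides are cut for MHC class I molecules. PSME1 and PSME2 together form PA28, a ring that can cap the core in place of 19S.

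Levels are given as FPKM, a fragment count scaled to transcript length and library depth, which corrects for length and so allows genes to be compared. Changes are log2 fold changes of cytokine over control with their standard error (SE), from read counts divided by size factors, where 1 is a doubling. A gene was called higher or lower when the adjusted p of the authors' DESeq test was under 0.05. The deposited tables used here give one value per group, so no value per library can be shown. Nothing in the labels ties libraries to separate cultures, so the p-values cover library-to-library spread alone, and that spread may be technical. Summed over all loci, a library held on average 40881975 normalized counts in the authors' deposited tables, and 43 members had at least 1000.

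Proteasome genes split into a small set that rose steeply, a 20S core of which most genes rose moderately and a 19S cap that moved little and in both directions. By the authors' deposited table, 22 members were higher, 8 were lower and 16 were not called, against 37.7% of all tested loci called, 18% higher and 19.7% lower. Calls are more common among well counted loci, and at 1000 or more counts 27 of 43 members were called (62.8%), less than the 78.2% of all such loci in the authors' deposited table. Among those 43 members, 20 were higher and 7 lower in the authors' deposited table, where all loci of that depth had 32.9% higher and 45.3% lower. The median change of the 46 members was 0.10 in the authors' deposited table, beside 0.05 over all tested loci and -0.06 over loci of at least 1000 counts. The 7 members that rose at least 2-fold were PSMB8, PSMB9, PSMB10, PSME1, PSME2, PSMA5 and PSMA6.

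**Figure D1:**
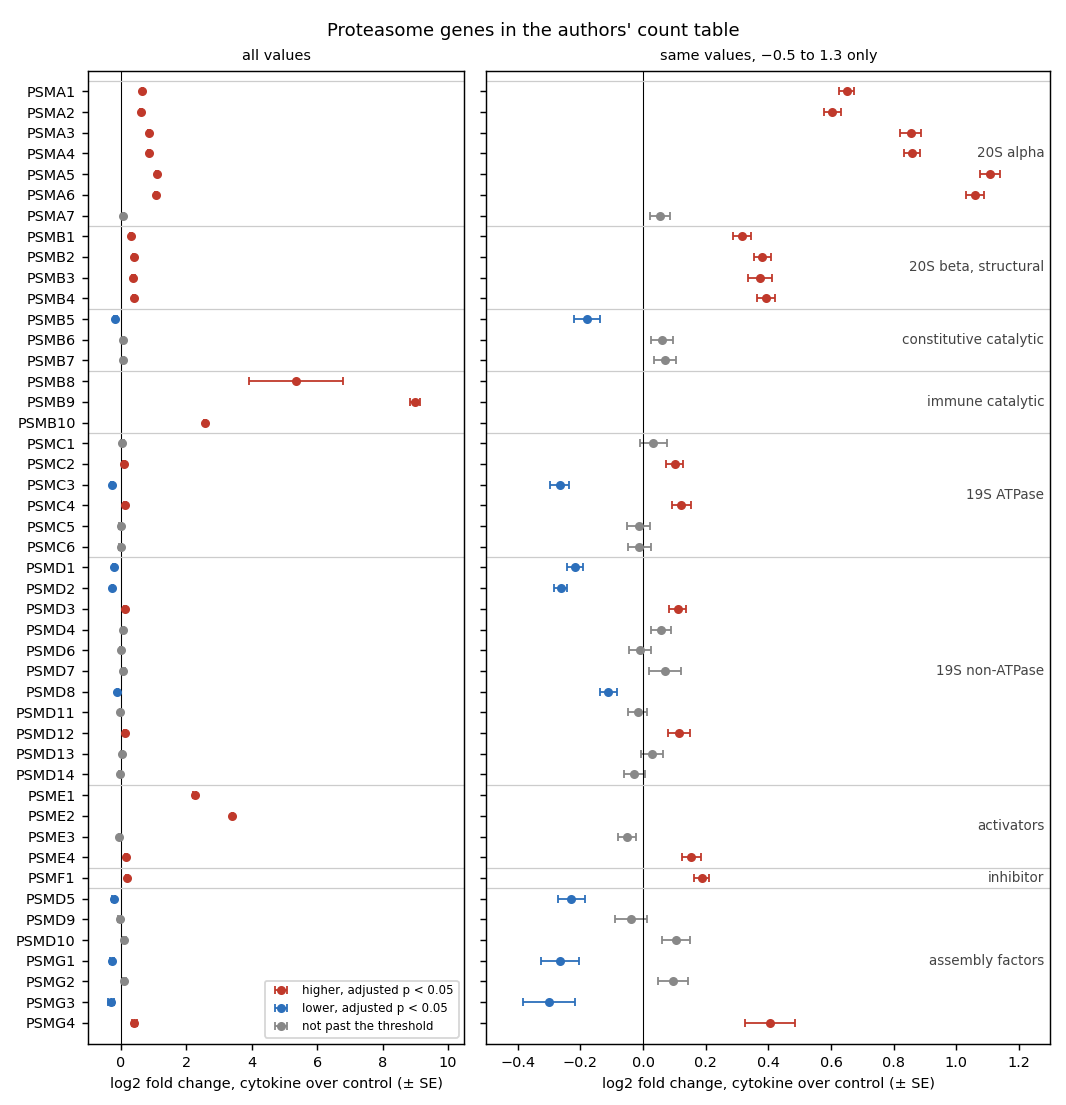
Log2 fold change of cytokine over control with its SE (horizontal axis) for the 46 tested members, grouped by role, from the authors' deposited count table; the right panel repeats the left one between -0.5 and 1.3. The immune catalytic subunits, PSME1 and PSME2 lie between 2.25 and 8.98, 6 of 7 alpha subunits between 0.60 and 1.11, and the 17 subunits of the 19S cap between -0.27 and 0.12.

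A second deposited table, made with Cuffdiff from FPKM values, gave 20 members higher, 4 lower and 22 not called, where 35.7% of all its 21865 tested loci were called. By the authors' deposited tables, 23 members were called the same way by both tools and none in opposite directions. Another 7 members (PSMB5, PSMC2, PSMD2, PSMD8, PSMD12, PSMD5 and PSMG4) were called from counts only, and PSMD10 from FPKM only, in the authors' deposited tables. The largest of these changes was that of PSMG4, 0.41 by count.

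The 3 immune catalytic subunits, the replacements for the constitutive sites, rose the most of all classes. PSMB9, which takes the place of PSMB6, had 26.4 normalized counts in control and 13355 with cytokines in the authors' deposited count table, a change of 8.98 ± 0.16 with an adjusted p listed at 0. Its locus on chromosome 6 (gene at 32844136 to 32859851, plus strand, GRCh38) was counted together with the antisense RNA PSMB8-AS1. Transcripts assigned to PSMB9 alone had 0.297 FPKM in control and 721 with cytokines in the authors' deposited isoform table, while PSMB8-AS1 had 1.03 and 45.5. The control level of the shared locus was therefore mostly antisense RNA and the cytokine level mostly PSMB9.

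PSMB10, the replacement for PSMB7 (chromosome 16, 67934506 to 67936864, minus strand), had 2233 normalized counts in control and 13307 with cytokines in the authors' deposited count table, a change of 2.57 ± 0.03 with an adjusted p listed at 0. This locus also holds CTRL, LCAT, SLC12A4 and the clone-named gene CTC-479C5.12. By isoforms, PSMB10 alone had 4.62 FPKM in control and 190 with cytokines in the authors' deposited table, a log2 ratio of 5.37. Its neighbours SLC12A4, a potassium chloride cotransporter, and LCAT, a lipoprotein enzyme, had 10.8 and 12.8 FPKM and 3.89 and 4.20 FPKM in control and cytokine in the authors' deposited table. The change of the whole locus was thus smaller than that of the PSMB10 transcripts within it.

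PSMB8, the replacement for PSMB5 (chromosome 6, 32840717 to 32844679, minus strand), shared its locus with TAP1, which pumps peptides into the endoplasmic reticulum. The count table held almost no reads for this locus, 0.172 normalized counts in control and 7.01 with cytokines in the authors' deposited table, so its change of 5.35 ± 1.45 (adjusted p = 0.000796) rests on very few reads. Its control value lies below 1 read, and a fitted change from such a value is no bound on its size. The authors' deposited FPKM table instead had 10.2 and 1440 FPKM for the same locus, so that a locus FPKM corresponded to 0.00495 counts, against 17.1 to 221 for members of at least 1000 counts. Transcripts of PSMB8 alone had 8.71 FPKM in control and 397 with cytokines in the authors' deposited table, and those of TAP1 had 1.39 and 1040. For PSMB8 the FPKM tables therefore carry the level, and the reason for the low counts was not tested.

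The constitutive subunits differed little between the groups. PSMB5, the chymotrypsin-like site, was lower by count, from 3189 to 2817 normalized counts with a change of -0.18 ± 0.04 (adjusted p = 3.40e-05) in the authors' deposited table. By FPKM PSMB5 was at 154 and 144 with q = 0.816 in the authors' deposited table, so the FPKM test did not call it. PSMB6, the caspase-like site, had a change of 0.06 ± 0.03 (adjusted p = 0.179) and 102 and 109 FPKM in the authors' deposited table. PSMB7, the trypsin-like site, had 0.07 ± 0.04 (adjusted p = 0.115) and 105 and 113 FPKM in the authors' deposited table. Neither passed the threshold, although centring all changes on the median of well counted loci moved both past it, to 0.12 and 0.13.

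Each immune subunit overtook the partner it replaces. From isoform sums of the authors' deposited table, PSMB8 made up 5.36% of the PSMB8 and PSMB5 transcripts in control and 73.4% with cytokines. PSMB9 made up 0.289% and 86.9% of the sum with PSMB6, and PSMB10 4.22% and 62.7% of the sum with PSMB7, in the authors' deposited table. Summed, the 3 immune subunits went from 13.6 to 1308 FPKM while the 3 constitutive ones stood at 361 and 366, so the immune share was 3.64% and then 78.1% in the authors' deposited table. By count, the log2 change of the immune gene's whole locus exceeded that of its partner's locus by 5.53 ± 1.45 for PSMB8 (95% interval 2.69 to 8.37), 8.92 ± 0.16 for PSMB9 (8.60 to 9.24) and 2.51 ± 0.05 for PSMB10 (2.41 to 2.60), computed from the authors' deposited table. These intervals take the pair of loci as independent, and all 3 lie above 0. The first rests on the few reads of the locus shared with TAP1, and the last on the locus with SLC12A4 and LCAT. By isoform sums, PSMB10 alone had a log2 ratio of 5.37 and PSMB7 of 0.12 in the authors' deposited table, which gives no error for them. Transcript shares are not shares of assembled particles, which were not measured.

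**Figure D2:**
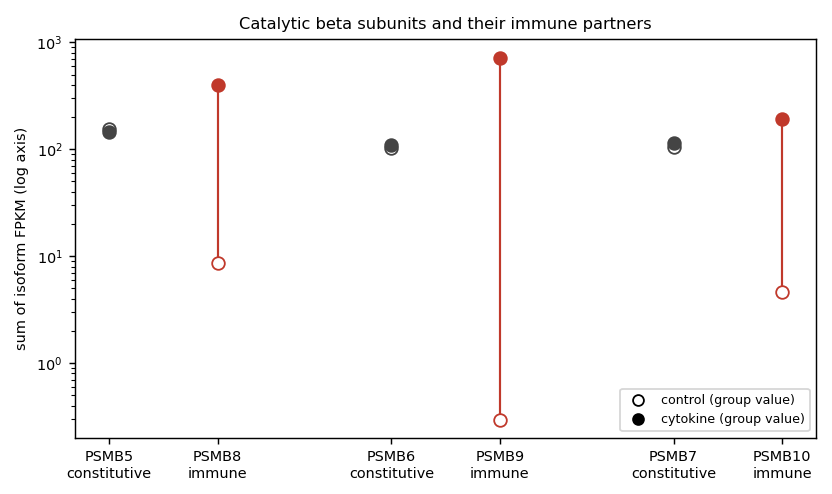
Sum of isoform FPKM (log axis) of each constitutive catalytic subunit and the immune subunit that replaces it, with open circles for the control and filled circles for the cytokine group value; the tables give no error for these sums. Constitutive subunits keep between 102 and 154 FPKM, while PSMB8, PSMB9 and PSMB10 go from 8.71, 0.297 and 4.62 to 397, 721 and 190 FPKM.

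The PA28 genes, side by side on chromosome 14, rose together with the immune subunits. PSME1 (24136163 to 24138967, plus strand) had 2239 normalized counts in control and 10630 with cytokines, a change of 2.25 ± 0.03, and from 91.0 to 449 FPKM in the authors' deposited tables. PSME2 (24143362 to 24147570, minus strand) had 2161 normalized counts in control and 22927 with cytokines, a change of 3.41 ± 0.03, and from 59.1 to 681 FPKM in the authors' deposited tables. By locus FPKM, PSME1 was thus the more abundant PA28 gene in control and PSME2 with cytokines. The locus of PSME2 includes the microRNA gene MIR7703, listed at 0 FPKM in both groups, and the pseudogene PSME2P2 is named as a copy of it, so the division of reads between them is uncertain.

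The other caps stayed close to their control level. PSME3, the nuclear relative of PA28, had 6691 and 6461 normalized counts, a change of -0.05 ± 0.03 (adjusted p = 0.156), and 72.4 and 70.8 FPKM in the authors' deposited tables. PSME4, which encodes the large single-chain activator PA200, rose by 0.15 ± 0.03 (adjusted p = 1.94e-06), from 19.8 to 24.2 FPKM, in the authors' deposited tables. PSMF1, known as an inhibitor of the isolated core, rose by 0.19 ± 0.02 (adjusted p = 1.76e-14), from 132 to 155 FPKM, in the authors' deposited tables. Of the 4 activators 3 rose and 1 was not called, and the sizes ran from -0.05 to 3.41 in the authors' deposited table. All 4 had at least 1000 counts, a depth at which 32.9% of all loci were higher.

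Interferon signalling acts through a DNA element called the ISRE, to which interferon-activated factors bind, so promoters of the members were searched on both strands for its core, the letters GAAA, any 2 bases, and GAAA again. RefSeq windows (GRCh38.p14, 250 bases before to 50 after the start) matched 42 of the 48 members by symbol, and PSMA7, PSMB1, PSMB6, PSMB7, PSMD4 and PSMG3 had none. The core stood in 7 members, PSMA4, PSMB4, PSMB8, PSMB10, PSME1, PSME2 and PSMG4, and in 4.38% of all 27305 genes with a window (3.57% of 35116 windows). All 7 were called higher in the authors' deposited count table, as were 14 of the 35 members without it. Of these 7, PSMG4 was not called by FPKM (q = 0.375), and the count of the PSMB8 locus rests on very few reads. Over all tested loci with a window, 48.2% with the core and 26.3% without were higher. A match describes the letters and is not evidence of binding. The sites follow, as 30 bases 5′ to 3′ on the gene's own strand with the core in capitals, since they are what these members share. A core on the other strand reads as blocks of TTTC.
PSMB8 (chr6:32844032-32844061, minus): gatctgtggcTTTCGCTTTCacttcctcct
PSMB10 (chr16:67936852-67936881, minus): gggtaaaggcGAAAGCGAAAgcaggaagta
PSME1 (chr14:24136189-24136218, plus): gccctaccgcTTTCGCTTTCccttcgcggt
PSME2 (chr14:24146619-24146648, minus): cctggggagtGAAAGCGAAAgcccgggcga
PSMG4 (chr6:3258904-3258933, plus): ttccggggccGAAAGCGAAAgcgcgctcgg
PSMB4 (chr1:151399495-151399524, plus): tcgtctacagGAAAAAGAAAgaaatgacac
PSMA4 (chr15:78540155-78540184, plus): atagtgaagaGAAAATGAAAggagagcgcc

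The 5 sites of PSMB8, PSMB10, PSME1, PSME2 and PSMG4 hold the same 10 letters on one strand or the other, while those of PSMB4 and PSMA4 each have other letters at the 2 open positions. Counted from the start, where -1 is the base before it, the first base of the core was at -4 in PSMB8, -21 in PSMB10, 6 in PSME1, -28 in PSME2, -33 in PSMG4, -68 in PSMB4 and -240 in PSMA4. PSMB9 had no ISRE core in its own window. Its start lies 488 bases from that of TAP1, which is transcribed the other way. The TAP1 window on the stretch between them held 2 overlapping cores, beginning at -134 and -128, and the NF-kB motif (GGGA, any base, TTTCC) at -72. TAP1 was the only gene outside the members whose motif positions were listed, so windows of genes beside other members were not examined in this way. None of the 42 members with a window held that NF-kB motif, which was in 0.558% of all windows. The promoter stretches of 250 bases before the start are shown for PSMB8, PSMB10 and PSME2, the steeply rising genes whose core begins before the start, and for the TAP1 side of the PSMB9 promoter. Whole ISRE cores, NF-kB motifs and the gamma-activated sequence motif TTCNNNGAA (GAS) are in capitals. The ISRE core of PSMB8 crosses the start, so this stretch holds only its first bases, in lower case.
TAP1 side of PSMB9 (chr6:32853705-32853954, minus): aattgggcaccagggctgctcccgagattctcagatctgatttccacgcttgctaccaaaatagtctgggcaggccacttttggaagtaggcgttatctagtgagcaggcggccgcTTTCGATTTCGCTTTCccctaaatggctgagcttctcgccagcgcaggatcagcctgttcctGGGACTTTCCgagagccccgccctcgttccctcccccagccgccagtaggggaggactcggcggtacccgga
PSMB8 (chr6:32844048-32844297, minus): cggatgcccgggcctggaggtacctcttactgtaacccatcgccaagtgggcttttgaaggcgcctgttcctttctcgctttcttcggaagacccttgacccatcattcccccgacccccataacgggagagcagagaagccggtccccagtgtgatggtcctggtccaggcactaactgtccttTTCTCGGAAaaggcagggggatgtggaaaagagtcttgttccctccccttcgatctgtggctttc
PSMB10 (chr16:67936851-67937100, minus): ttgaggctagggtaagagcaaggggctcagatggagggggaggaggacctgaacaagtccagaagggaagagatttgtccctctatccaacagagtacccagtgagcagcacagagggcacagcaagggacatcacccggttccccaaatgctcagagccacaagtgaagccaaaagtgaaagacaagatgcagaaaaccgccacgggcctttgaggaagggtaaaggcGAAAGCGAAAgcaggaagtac
PSME2 (chr14:24146611-24146860, minus): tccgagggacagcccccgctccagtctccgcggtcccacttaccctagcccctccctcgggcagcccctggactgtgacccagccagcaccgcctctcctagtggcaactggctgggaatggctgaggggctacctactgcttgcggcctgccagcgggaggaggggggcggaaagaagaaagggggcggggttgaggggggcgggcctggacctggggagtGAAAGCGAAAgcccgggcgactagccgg

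The GAS motif was in 8 members and in 9.38% of all genes with a window (7.66% of windows), and these members did not move one way. By the authors' deposited table, 4 of them were higher (PSMB8, PSMA2, PSMC4 and PSMD3), 2 were lower (PSMB5 and PSMD2), and PSME3 and PSMA8 were not called or not tested. Of the 34 members without GAS 17 were higher, and over all tested loci 32% with it and 26.8% without were higher, in the authors' deposited table. Motifs known from other proteasome promoters were common. TGACNNNGC, a core of the antioxidant response element, was in 15 members and 16.1% of all genes (13.3% of windows), and CCAAT in 20 members and 39.7% of all genes (34.6% of windows). By the authors' deposited table, 9 of the 15 members with the first were higher and 12 of 27 without it, where 29.6% of all tested loci with it and 26.7% without were higher. For CCAAT, 9 of 20 members with it and 12 of 22 without were higher in the authors' deposited table, where the shares over all tested loci were 28.0% and 26.7%.

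Transcripts were also measured one by one. The 48 members had 447 listed transcripts, of which 307 were tested, and 34 were higher and 1 lower at q under 0.05 in the authors' deposited isoform table. That is 11.4% of the tested transcripts, where 9.87% of all 95649 tested transcripts were called (5.17% higher and 4.7% lower), and at 1 FPKM or more in a group it was 17.9% of 196, where all such transcripts had 18.5%. PSMB8 has coding transcripts with different starts, of which 2 passed the threshold. The one whose window holds the ISRE core, ENST00000374882, went from 6.44 to 365 FPKM in the authors' deposited table (q = 0.000833). The one that starts further upstream, ENST00000374881, went from 2.11 to 27.6 FPKM in the authors' deposited table (q = 0.0154), and the difference between the transcripts was not tested. In PSMB10 the most abundant transcript in control was a retained intron form, ENST00000570985, at 2.52 FPKM, and with cytokines it was the coding ENST00000358514, which went from 1.43 to 182 FPKM in the authors' deposited table. PSMB9 was almost entirely ENST00000374859, at 0.288 and 716 FPKM in the authors' deposited table.

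Leading transcripts were otherwise stable, with the same one on top in both groups for 46 of 48 members, PSMA8 at 0 included; besides PSMB10, PSMD11 changed between a pair of near-equal forms. PSME1 was mainly ENST00000206451, at 85.2 and 409 FPKM in the authors' deposited table. PSME2 was spread over ENST00000615264 (24.9 and 262 FPKM), ENST00000560410 (16.3 and 211 FPKM) and ENST00000471700 (6.94 and 133 FPKM), all with q = 0.000833 in the authors' deposited table. Its form ENST00000216802 had 4.37 and 6.84 FPKM (q = 0.518) in the authors' deposited table. Among the constitutive subunits none of 12 tested transcripts was called, and the leading ones, ENST00000361611 of PSMB5, ENST00000270586 of PSMB6 and ENST00000259457 of PSMB7, had q of 0.344, 0.556 and 0.347 in the authors' deposited table. The single lower transcript was ENST00000308696 of PSMD1, at 56.9 and 50.2 FPKM (q = 0.0328), in the authors' deposited table.

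**Figure D3:**
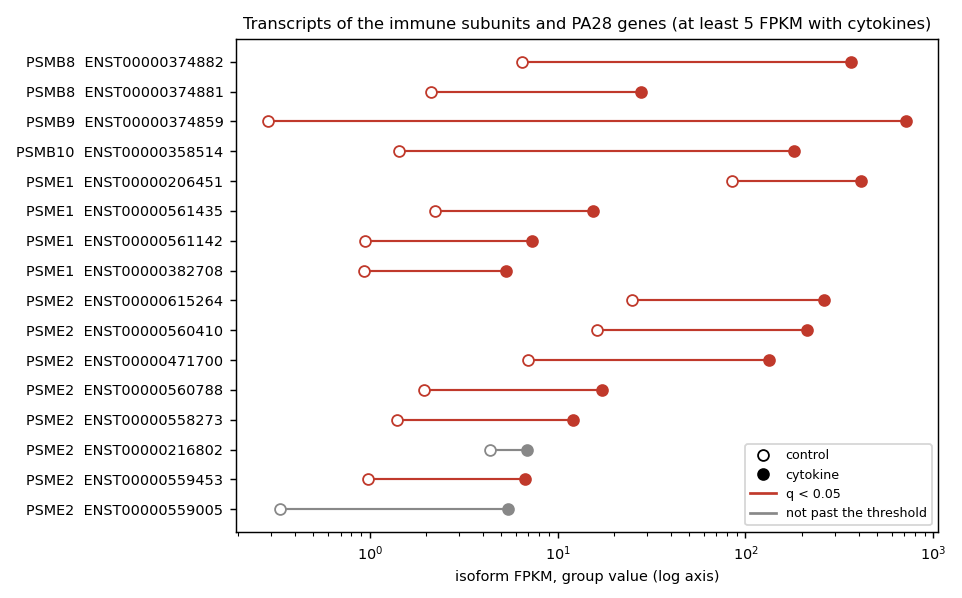
FPKM (log axis) of the 16 tested transcripts of PSMB8, PSMB9, PSMB10, PSME1 and PSME2 with at least 5 FPKM with cytokines, open circles for control and filled circles for cytokine group values, without error bars because the tables give none. All 16 lie further right with cytokines and 14 passed q under 0.05; ENST00000216802 and ENST00000559005 of PSME2 did not.

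The alpha ring, which gates the core and docks the caps, rose as a group with 1 exception. Of 7 tested alpha genes, all with at least 1000 counts, 6 were higher in the authors' deposited table, where 32.9% of all loci of that depth were. The median change of the 7 was 0.85. The highest were PSMA5, which rose by 1.11 ± 0.03 in counts and from 32.4 to 71.6 FPKM in the authors' deposited tables, and PSMA6, which rose by 1.06 ± 0.03 and from 87.6 to 198 FPKM. Their order depends on the table, since by FPKM the log2 change was 1.14 for PSMA5 and 1.18 for PSMA6 in the authors' deposited table. PSMA4 rose by 0.86 ± 0.03, from 147 to 265 FPKM in the authors' deposited tables, and with that had the highest locus FPKM of the alpha genes. Its leading single transcript, ENST00000557929, was at 96.9 FPKM with cytokines, below ENST00000370873 of PSMA7 at 191 FPKM. PSMA3 rose by 0.85 ± 0.03 and PSMA2 by 0.60 ± 0.03 in the authors' deposited table. PSMA1 rose by 0.65 ± 0.02 in the authors' deposited table, in a locus shared with COPB1, a coat protein of Golgi vesicles. By isoforms PSMA1 alone had 55.5 and 119 FPKM, a log2 ratio of 1.10, and COPB1 35.9 and 45.9 FPKM in the authors' deposited table.

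PSMA7, the most abundant core transcript in control, had 4357 and 4520 normalized counts, a change of 0.05 ± 0.03 (adjusted p = 0.208), and 194 and 201 FPKM in the authors' deposited tables. Centring on well counted loci moved it past the threshold, to 0.11, still far below the other alpha genes. PSMA8, the testis form that replaces PSMA7 in germ cells, was listed at 0 in both groups of the authors' deposited tables. PSMB11, the thymus catalytic subunit, had a mean of 0.157 counts in the authors' deposited count table and was not tested. The locus of PSMA6 also holds KIAA0391, that of PSMA2 holds C7orf25 and that of PSMA3 holds CTD-2002H8.2.

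The structural beta subunits, which carry no active site, rose by a smaller and more even amount. PSMB4 rose by 0.39 ± 0.03, PSMB2 by 0.38 ± 0.03, PSMB3 by 0.37 ± 0.04 and PSMB1 by 0.31 ± 0.03 in the authors' deposited table. All 4 were also higher by FPKM in the authors' deposited table, from 161 to 217 for PSMB4 and from 47.2 to 63.0 for PSMB2. Across the 14 core genes outside the immune set with at least 1 FPKM, control levels ran from 32.4 (PSMA5) to 194 FPKM (PSMA7), a 5.98-fold span with a median of 105, in the authors' deposited table. With cytokines they ran from 63.0 (PSMB2) to 265 FPKM (PSMA4), a 4.21-fold span with a median of 141, in the authors' deposited table.

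**Figure D4:**
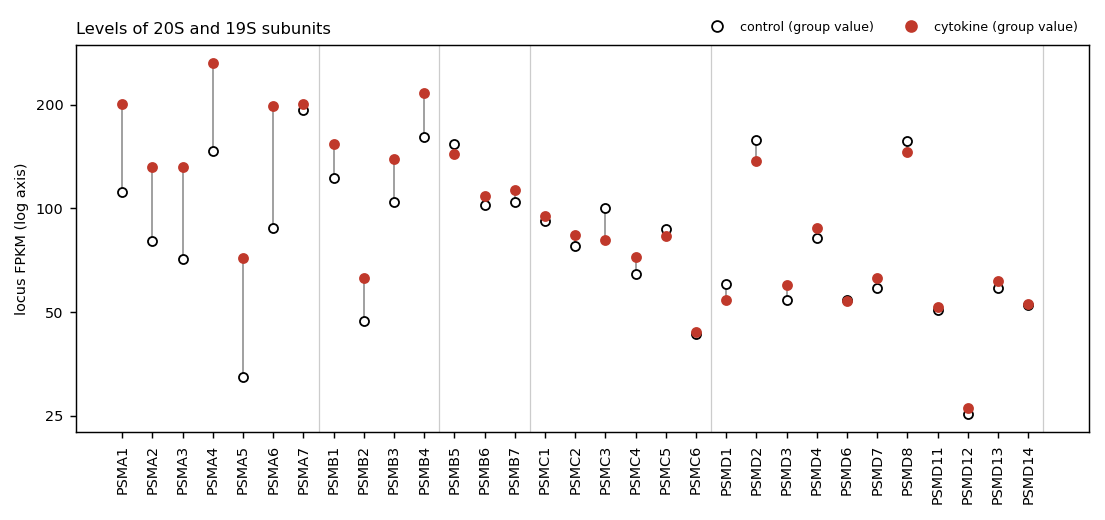
Locus FPKM (log axis) of the 20S subunits outside the immune set and of the 19S subunits, with open circles for control and red circles for cytokine group values and no error bars, since the tables give none. All alpha and structural beta genes lie higher with cytokines, PSMA7 by little (194 and 201 FPKM), while the 19S genes lie on either side of their control level.

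The 19S cap did not move one way. Of its 17 genes 4 were higher, 4 lower and 9 not called in the authors' deposited table, and the median change was -0.01. All 17 had at least 1000 counts, a depth at which 78.2% of all loci were called, 32.9% higher and 45.3% lower. Of the 6 ATPases, which form the unfolding ring, PSMC4 (0.12 ± 0.03) and PSMC2 (0.10 ± 0.03) were higher and PSMC3 (-0.27 ± 0.03) was lower in the authors' deposited table. PSMC1, PSMC5 and PSMC6 had 0.03, -0.01 and -0.01 in the authors' deposited table and did not pass. PSMC3 was also lower by FPKM, from 100.5 to 80.8, in the authors' deposited table.

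Among the 11 other cap genes, the large scaffold subunits were lower. PSMD2, the most highly counted member in control, fell by 0.26 ± 0.02 on the log2 scale, from 13608 to 11346 counts, and PSMD1 fell by 0.22 ± 0.03 in the authors' deposited table. By FPKM PSMD1 was called (q = 0.0470) and PSMD2 was not (q = 0.514) in the authors' deposited table. PSMD8, a lid subunit, was at -0.11 ± 0.03 (adjusted p = 0.000201) in the authors' deposited table, and it lost its call by FPKM and when centred on well counted loci. PSMD12 (0.11 ± 0.03) and PSMD3 (0.11 ± 0.03), also of the lid, were higher in the authors' deposited table. The ubiquitin receptor PSMD4, the deubiquitinase PSMD14 and the lid subunits PSMD6, PSMD7, PSMD11 and PSMD13 had changes between -0.03 and 0.07 in the authors' deposited table and were not called.

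Assembly factors showed no common direction. Of 7, 1 was higher, 3 lower and 3 not called in the authors' deposited table, and their median was -0.04. Over all tested loci 18% were higher and 19.7% lower, and over those of at least 1000 counts 32.9% and 45.3%. PSMG1 and PSMG2 pair up to line up the alpha ring, and PSMG1 was at -0.27 ± 0.06 (adjusted p = 4.87e-05) and PSMG2 at 0.10 ± 0.05 (adjusted p = 0.110) in the authors' deposited table. PSMG3 and PSMG4 form the other chaperone pair, and PSMG3 was at -0.30 ± 0.08 (adjusted p = 0.00109) and PSMG4 at 0.41 ± 0.08 (adjusted p = 1.16e-06) in the authors' deposited table. Partners thus lay on opposite sides of 0 in both pairs, but PSMG2 was called neither by count nor by FPKM (q = 0.108). PSMG4 was not called by FPKM (q = 0.375) in the authors' deposited table. The chaperones of the 19S base had -0.23 ± 0.04 for PSMD5 (adjusted p = 9.51e-07), -0.04 ± 0.05 for PSMD9 and 0.10 ± 0.04 for PSMD10 (adjusted p = 0.0525) in the authors' deposited table.

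Other genes of the pathway were taken from a list of 31 by role. By the authors' deposited table, 14 were higher, 10 lower and 7 not called, and their median was 0.01. All but NGLY1 had at least 1000 counts, a depth at which 78.2% of all loci were called, 32.9% higher and 45.3% lower. Among the largest rises were NLRC5 (8.21 ± 0.09), the transactivator of MHC class I genes, IRF1 (6.67 ± 0.03), a transcription factor of the interferon response, and UBA6 (1.09 ± 0.03), a ubiquitin-activating enzyme, in the authors' deposited table. The 4 largest falls were UBE3C (-0.38 ± 0.02), a ligase at the proteasome, USP14 (-0.29 ± 0.05), a deubiquitinase bound to it, PAAF1 (-0.26 ± 0.06), a 19S chaperone, and UBQLN4 (-0.25 ± 0.04), a shuttle, in the authors' deposited table. POMP, the maturation factor of the core, had 1.07 ± 0.03 in the authors' deposited table and was picked for mention after its value was seen. NFE2L1, which drives proteasome genes when degradation is impaired, had -0.18 ± 0.03, and NFE2L2 0.62 ± 0.03, in the authors' deposited table, both also mentioned after their values were seen.

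Since leukocytes carry immunoproteasomes without treatment, marker levels were read beside these changes. The 6 leukocyte markers summed to 1.35 FPKM in control and 1.29 with cytokines in the authors' deposited table, nearly all of it CD14, and 4 of 6 were under 0.1 FPKM in both groups. PTPRC, the common leukocyte antigen, was at 0.0274 and 0.00761 FPKM in the authors' deposited table. The 3 endothelial markers were all under 0.1 FPKM in both groups, and the 3 fibroblast markers summed to 3.49 and 7.87 FPKM, with COL1A1 called higher, in the authors' deposited tables. The 3 exocrine markers summed to 83.1 FPKM in control and 87.5 with cytokines in the authors' deposited table. Of these, KRT19 was called higher (49.4 and 62.0 FPKM) and CPA1 lower (33.7 and 25.5 FPKM), and PRSS1 was at 0. The part of any of these cell types in the changes above was not tested. The beta cell factors PDX1 (-0.02) and NKX6-1 (0.00) were not called in the authors' deposited table. The locus that holds insulin, INS, was lower (-0.57 ± 0.05), but it was counted together with IGF2, H19, ASCL2 and other genes. INS was listed at 0 FPKM in both groups, so the change of insulin itself cannot be read from these values. In bulk RNA, fewer cells of a type and less RNA per cell cannot be told apart.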

How the data were processed

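Poly(A) RNA of EndoC-βH1 cells, 3 control and 3 cytokine libraries, was sequenced. Per the submitters' processing notes, build hg38 and the tools DESeq, Cuffdiff 2.2.1, StringTie, STAR 2.5.2b, FastQC 0.10.1 and bcl2fastq were used. The sources used here do not give the read counter, strand setting or annotation. The deposited count tables hold, per the file headers, a signal (the mean of normalized counts over the libraries), log2 fold changes with SE, a score (the test statistic) and p-values. The authors' deposited Cuffdiff tables hold group FPKM, log2 ratios, a score, p-values and q-values, per the file headers.

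Group counts were derived from the deposited mean and fold change. Where a locus has several symbols, isoform FPKM were summed per gene. Intervals are at 95%. Every member is accounted for; beyond members, the 4 largest rises and falls past the threshold were to be named, of which 1 is not reported here. The members were set by a rule on names, but the gene family and the lists were chosen with earlier results of these data known. Adjusted p-values are the authors' DESeq values over all tested loci. Gene positions come from GENCODE 44, promoters from RefSeq. The adjustment and centring steps were tested on simulated data. The calculations used matplotlib 3.10.9, scipy 1.17.1, numpy 2.4.6, pandas 2.3.3 and Python 3.11.15. Thresholds, scaling, filters, pseudocounts and isoform sums were varied; some of these were added after seeing the data.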

Additional observations from a re-analysis of the deposited data

How the results depend on the processing

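No paired analysis was possible because the tables used here hold the authors' group comparison and no values per library, and for the same reason leaving out a replicate was not run. At an adjusted p under 0.01 all 46 members kept their side of the threshold. The Cuffdiff gene table ended the call of 7 members and added 1, centring on the median of well counted loci ended 1 and added 8, and testing only loci of at least 10 counts added 1 (PSMD10) and removed the PSMB8 locus, so that 2 immune subunits were called in place of 3. Counts of calls that moved by over 1.5 times were few, and causes were not tested unless stated. By Cuffdiff, 4 members were lower, 0 constitutive subunits were called and 2 of the 11 non-ATPase cap genes were called. Centred, all 3 constitutive subunits were called. With loci of 1 symbol only, which leaves 35 members, 13 were higher, 2 alpha genes and 0 constitutive subunits were called, and 0 immune subunits could be tested. Uncalled members changed sign when centred (PSMC5 0.0415, PSMC6 0.0439, PSMD6 0.0464, PSMD11 0.0382, PSMD14 0.0284, PSME3 0.00503 and PSMD9 0.0169) or by Cuffdiff (PSMC6 0.0145, PSMD11 0.0318 and PSMD14 0.00515). The ratio of PSMB8 to PSMB5 with cytokines was 10.0 by locus, 2.77 by isoform sum and 2.76 by coding isoforms, which leave out TAP1. In control, PSMB9 to PSMB6 was 0.0161 by locus, 0.0256 with 1 FPKM added, 0.00290 by isoform sum and 0.00284 by coding isoforms. PSMB10 to PSMB7 was 0.194 by locus, 0.0441 by isoform sum and 0.0137 by coding isoforms. Coding-isoform sums were added after seeing the data.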

Other observations

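Processed copies and antisense partners of the members were also listed. Of 31 pseudogene loci, 7 had no reads, 16 were tested and 1 was called, where 37.7% of all tested loci were called. The mean was under 50 counts at 29 of the 31, a depth at which few changes can be called. The called locus, PSME2P2, had 25.2 and 267 normalized counts and a change of 3.40 ± 0.21 in the authors' deposited table, beside 3.41 ± 0.03 for PSME2. PSMC1P1 had 1432 and 1434 normalized counts but only 0.427 and 0.644 FPKM in the authors' deposited tables, beside 2133 and 2183 counts and 92.0 and 95.3 FPKM for PSMC1. How reads were divided between copies and their parent genes was not tested.

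The antisense RNA PSMD5-AS1 was higher, at 0.17 ± 0.04, while PSMD5 was lower, at -0.23 ± 0.04, in the authors' deposited table. The locus of PSMD6-AS2, shared with RP11-245J9.4, was higher (0.79 ± 0.30, adjusted p = 0.0263) at a mean of 40.2 counts in the authors' deposited count table, and the locus of PSMA3-AS1, shared with C14orf37 and another gene (0.03 ± 0.04), and PSMG3-AS1 (-0.16 ± 0.13) were not called. PSMC3IP, a meiotic recombination cofactor that binds PSMC3 and is no proteasome subunit, was lower by count, from 523 to 297, with a change of -0.82 ± 0.10 in the authors' deposited table.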
